A study of Mus musculus with 42 samples.

Results

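Histone transcripts of mouse liver were followed through 6 months of rapamycin (Rapa) feeding. The members were all 55 probes of the normalized table whose platform gene symbol starts with Hist1, Hist2, Hist3, Hist4, H2af, H3f or H1f, or with the newer names of those genes, out of 17082 probes. Among them, 5 genes were found by an older symbol (H4f16, H2aj, H2al2a, H2ax and Macroh2a1). The probes covered 51 of the 11615 genes that the platform annotation names in the table. Of these probes, 45 (43 genes) belonged to replication-dependent histones, and 10 (8 genes) to replacement histones. C57BL6/N mice were given chow with 14 ppm of encapsulated Rapa, or control chow with the empty Eudragit capsule, from 19 months of age, and the liver was taken at 25 months. The groups were 12 Rapa males, 10 control males, 11 Rapa females and 9 control females, with 1 Illumina Mouse Ref8 array for each mouse. All 4 groups shared the strain, the age and the capsule material, and only this age, dose and duration were measured here.

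Histones package DNA into nucleosomes. The replication-dependent histones are encoded by clusters of small genes without introns, are transcribed mainly in S phase, and most of their mRNAs end in a stem-loop in place of a poly(A) tail. Replacement histones such as H3.3 and H2A.Z are made throughout the cell cycle from ordinary polyadenylated mRNAs and are put into chromatin outside replication, which makes them the main supply of a tissue that seldom divides, such as adult liver. The labeling kit of these arrays primes from poly(A), so how much of each replication-dependent signal came from polyadenylated RNA is not known from these values. The genes are near copies of each other, the probe sequences were not used here, and a probe may therefore have bound transcripts of more than 1 histone gene. In RNA of whole liver, fewer cells of a type and less RNA in each cell cannot be told apart.

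Levels are log2 of the deposited signal after quantile normalization, and ratios are differences of these levels. The mean level of the 6 hepatocyte markers was 12.84 to 13.21 in Rapa males, 12.74 to 13.06 in control males, 13.06 to 13.35 in Rapa females and 13.08 to 13.39 in control females, and 5 of the 6 markers were detected on all arrays. Background (5th percentile of the raw signal) was 116 to 141 in Rapa males, 108 to 129 in control males, 78.4 to 108 in Rapa females and 76.5 to 89.7 in control females, so that sex and array background moved together. Control females 6 to 9 stood apart from all other mice on the 9720 probes that no array detected, with a Pearson r of at least 0.373 between these 4 arrays and at most 0.294 between other pairs. The histone calls that rest on control females are also given without these 4 mice. The labels and files name no slide or hybridization batch.

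A probe counted as detected on an array at a detection p under 0.05, and probes detected on at least 9 arrays were tested. Of the 55 histone probes, 30 were detected on all 42 arrays, 24 on some and 1 on none. The test took 35 replication-dependent probes (33 genes) and 7 replacement probes (7 genes). The remaining 13 probes were detected on at most 6 arrays and stayed between 6.47 and 7.59 in every mouse: H1f5, H2ac1, H2ac4, H2ac6, H2bc3, H2bc6, H3c1, H3c8, H4c2 (on no array), H4f16, both probes of H1f10 and the second probe of H3f3a. H1f2 (formerly Hist1h1c), which encodes the linker histone H1.2, had a median level of 12.43 over the 42 mice and was called in no comparison. Levels of different probes do not rank the amounts of their transcripts. Median levels of the tested replication-dependent probes spread from 7.16 to 12.93, and those of the replacement probes from 7.24 to 12.3.

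Of the tested histone probes, 3 rose in 6-months Rapa males and none fell, and all 3 encode histone H3. Among all 12719 tested probes 0.189% were higher and 0.464% lower in Rapa males, 0.653% in either direction, while the histones gave 3 of 42 (7.14%). Calls required an absolute log2 ratio over 0.15 (1.11-fold) together with an adjusted p (Benjamini-Hochberg, limma) under 0.05. H3c13 and H3c14 (formerly Hist2h3b and Hist2h3c1) are replication-dependent genes of the chromosome 3 cluster that encode H3.2, and H3f3b on chromosome 11 encodes the replacement histone H3.3. H3c13 was at 10.83, 11.13 and 11.47 in Rapa males and at 10.53, 10.77 and 11.07 in control males (lowest, median and highest). The groups overlapped, as they did for every histone probe in males (0.0472% of all tested probes did not), and all 12 Rapa males lay above the control mean. The ratio was 0.36 ± 0.08 (SE, adjusted p = 0.0304, limma). The same 3 values for the brighter H3c14 probe were 10.7, 10.94 and 11.34 in Rapa males and 10.07, 10.48 and 10.84 in control males.

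Again all 12 Rapa males were above the control mean of H3c14, with an overlap of the lowest Rapa males and the highest control males, and the ratio of 0.49 ± 0.10 (adjusted p = 0.0152, limma) was the largest increase among the histones. H3f3b was at 12.16, 12.47 and 12.96 in Rapa males, against 11.68, 12.16 and 12.31 in control males. Here too the 12 Rapa males exceeded the control mean, and the ratio was 0.46 ± 0.09 (adjusted p = 0.0123, limma). The other replication-dependent probes did not pass the test in males. Their class had a median ratio of 0.067 beside −0.005 over all tested probes, with 22 of 35 above 0, and the replacement class had 0.003. By family, 0 of 16 H2A, 0 of 9 H2B, 0 of 9 H4 probes and the single H1 probe were called, against 3 of 7 H3 probes. The second H3c14 probe, near background and detected in 4 of 12 Rapa males and 6 of 10 control males, gave 7.11, 7.25 and 7.7 in Rapa males and 7.05, 7.31 and 7.59 in control males. Its ratio was −0.06 and did not pass the test, so the 2 probes of this gene disagreed.

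The 3 male calls were close to the threshold. The H3c13 call was lost without Rapa male 7 or 12 or control male 2, 4, 5 or 7 (adjusted p up to 0.0798), while H3c14 and H3f3b kept theirs without any 1 mouse (adjusted p up to 0.0438 and 0.0417, limma). Without both Rapa males 6 and 7, which had high levels of S phase genes, H3c13 was at 0.31 (adjusted p = 0.0734, limma), and the part of these genes in the H3 result was not tested. With a random block for runs of neighbouring animal numbers, none of the 3 was called, at ratios of 0.37, 0.49 and 0.46 for H3c13, H3c14 and H3f3b (adjusted p = 0.107, 0.0851 and 0.0688, limma). With each array centred on its median instead, the median ratio of all tested probes in males was −0.128, against −0.005, and the ratios of H3c13, H3c14 and H3f3b were 0.11, 0.24 and 0.18 (adjusted p = 0.4, 0.0916 and 0.192, limma).

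**Figure D1:**
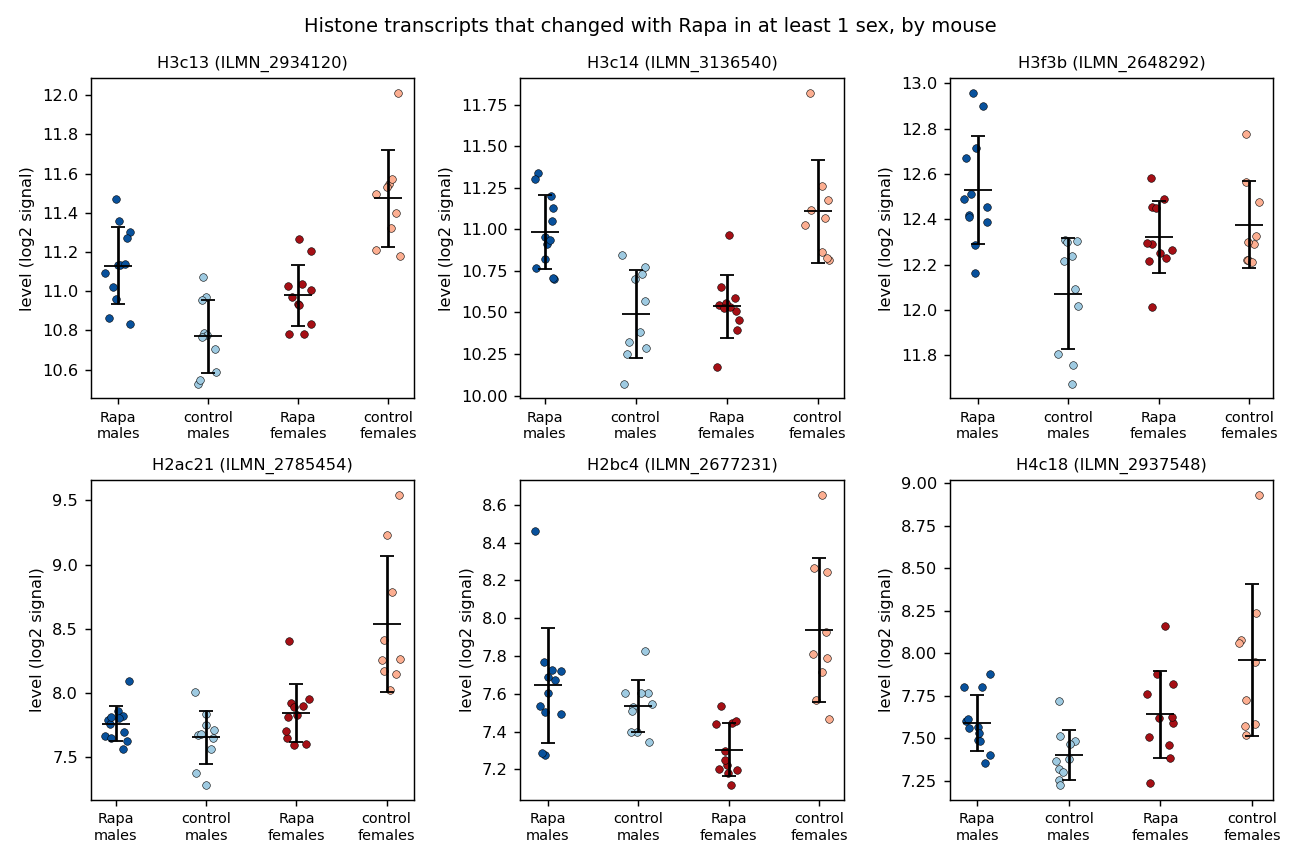
Level (log2 signal, y axis) of 6 histone probes in each mouse, 1 point per mouse, for Rapa males, control males, Rapa females and control females, with bars for the mean and SD. H3c13 and H3c14 were higher with Rapa in males and lower with Rapa in females, and for H3c13 control females had the highest levels (11.18 to 12.01).

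In 6-months Rapa females the direction was the opposite: 6 of the 42 tested histone probes fell and none rose, all of them replication-dependent. Over all tested probes 9.37% were lower and 12.2% higher in Rapa females, 21.6% in either direction, beside 14.3% of the histones (6 of 42, all lower). With so few probes, these shares are not read as a difference between histones and all probes. H3c13 was at 10.78, 10.97 and 11.27 in Rapa females and at 11.18, 11.5 and 12.01 in control females. All 11 Rapa females were below the control mean, with an overlap between the highest Rapa females and the lowest control females. No histone probe separated the 2 groups of females, against 1.79% of all tested probes. The ratio was −0.50 ± 0.09 (adjusted p = 4.56e-05, limma), or 0.71-fold. H3c14 (brighter probe) was at 10.17, 10.53 and 10.97 in Rapa females, against 10.82, 11.07 and 11.82 in control females. The 11 Rapa females again lay below the control mean, and the ratio was −0.57 ± 0.11 (adjusted p = 1.26e-04, limma). The dim H3c14 probe did not follow it, with 7.19, 7.78 and 8.19 in Rapa females (detected in 9 of 11) and 7.34, 7.58 and 7.95 in control females (6 of 9), and its ratio of 0.11 did not pass the test.

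H2ac21 (formerly Hist2h2ab), an H2A gene of the same chromosome 3 cluster, showed the largest called decrease. Its level was 7.6, 7.83 and 8.4 in Rapa females and 8.02, 8.26 and 9.54 in control females. Only the upper end of the Rapa females reached into the control range, and the ratio was −0.70 ± 0.13 (adjusted p = 1.16e-04, limma). H2bc4 (formerly Hist1h2bc), an H2B gene of the chromosome 13 cluster, fell on both of its probes. The dim probe was at 7.12, 7.25 and 7.53 in Rapa females, where 4 of 11 arrays detected it, against 7.47, 7.81 and 8.65 in control females, where all 9 did. The bright probe was at 12.35, 12.9 and 13.28 in Rapa females and at 12.88, 13.13 and 13.72 in control females. All 11 Rapa females were below the control mean of the dim probe, and 9 of 11 below that of the bright probe. The ratios were −0.63 ± 0.11 for the dim probe (adjusted p = 5.75e-05, limma) and −0.31 ± 0.10 for the bright probe (adjusted p = 0.0184, limma).

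H4c18 (formerly Hist1h4n), an H4 gene of chromosome 13, had a dim probe, detected on 12 of 12 arrays of Rapa males and 8 of 10 of control males. Among females, 9 of 11 Rapa arrays and 9 of 9 control arrays detected it. Its level was 7.24, 7.62 and 8.16 in Rapa females and 7.52, 7.95 and 8.93 in control females. The groups overlapped widely, 10 of 11 Rapa females were below the control mean, and the ratio was −0.32 ± 0.12 (adjusted p = 0.0427, limma). This call was lost when any of 12 single mice was left out. Of the 8 replication-dependent probes on chromosome 3, 3 were lower in Rapa females and 2 were higher in Rapa males. Of the 27 on chromosome 13, 3 were lower in Rapa females and none was called in males. The replication-dependent class had a median ratio of −0.202 in females, with 26 of 35 below 0, beside 0.023 over all tested probes. The replacement class had 0.075, and none of its 7 probes was called. Of the cell type markers in the same comparison, 3 of 7 tested ones of sinusoidal endothelial cells were lower in Rapa females (median ratio −0.222). Over all tested probes 9.37% were lower. Also lower were 2 of 6 hepatocyte, 1 of 8 Kupffer, 1 of 8 stellate and 1 of 5 erythroid markers. None was called of 12 neutrophil, 6 T and NK cell (median −0.25), 3 bile duct and 5 B and plasma cell markers (median −0.541). The marker calls were not repeated without control females 6 to 9. The mean level of the endothelial list was 8.97 to 9.51 in Rapa females and 9.3 to 9.76 in control females, and that of the B and plasma cell list 7.23 to 7.58 in Rapa females and 7.18 to 9.51 in control females. Their part in the histone result was not tested.

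Without control females 6 to 9, 4 of the 6 female calls remained, and 7.01% of all tested probes were called. H2ac21 then had a ratio of −0.44 (adjusted p = 0.00941), the dim H2bc4 probe −0.39 (adjusted p = 0.025), H3c13 −0.35 (adjusted p = 0.0154) and H3c14 −0.41 (adjusted p = 0.0244, all limma). The bright H2bc4 probe was at −0.15 (adjusted p = 0.466) and H4c18 at −0.05 (adjusted p = 0.839), and the median of the replication-dependent class was 0.004. The bright H2bc4 probe also lost its call without control female 6 alone (adjusted p = 0.064, limma).

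The difference between the sexes in the response was tested with the interaction term, the diet effect in females minus that in males. It was called for 6 of 42 histone probes, all of them negative, beside 8.51% negative and 11.9% positive among all tested probes and 20.4% called in either direction. H3c14 had an interaction of −1.07 ± 0.15 (adjusted p = 1.23e-06), H3c13 one of −0.86 ± 0.12 (adjusted p = 1.3e-06) and H2ac21 one of −0.80 ± 0.18 (adjusted p = 0.0012, all limma). Thus the diet ratio of H3c13 and of the bright H3c14 probe was positive in males and negative in females, while the dim H3c14 probe, not called in either sex, had −0.06 in males and 0.11 in females. The dim H2bc4 probe had −0.74 ± 0.16 (adjusted p = 6.33e-04), H4c18 had −0.51 ± 0.16 (adjusted p = 0.0211) and H3f3b had −0.51 ± 0.13 (adjusted p = 0.00381, all limma). For H3f3b the female ratio was −0.05 ± 0.09 and did not pass the test. Without control females 6 to 9, H3c14 was at −0.90 (adjusted p = 5.23e-05) and H3c13 at −0.71 (adjusted p = 8.23e-05), H2ac21 at −0.55 (adjusted p = 0.00959) and the dim H2bc4 probe at −0.50 (adjusted p = 0.0213), while H4c18 (−0.24, adjusted p = 0.302) and H3f3b (−0.42, adjusted p = 0.0526) were no longer called by limma. Centred on array medians, the H3f3b interaction was −0.12 (adjusted p = 0.542, limma).

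**Figure D2:**
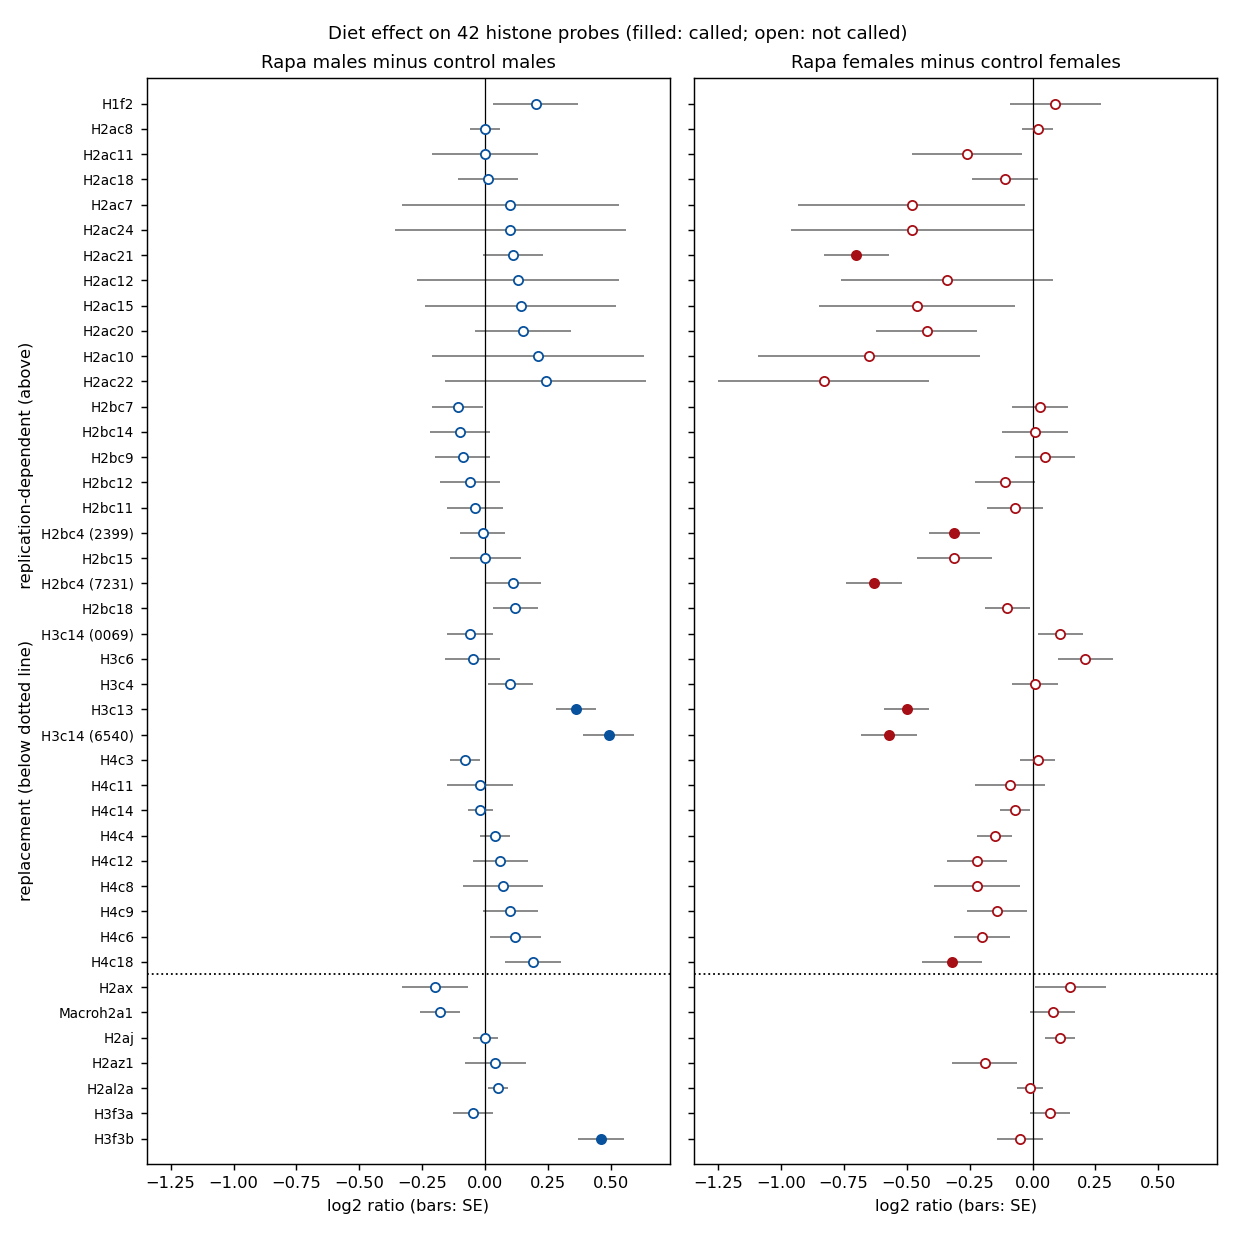
Log2 ratio of Rapa to control (x axis, bars for the SE) of the 42 tested histone probes in males (left) and females (right), with replication-dependent genes above and replacement genes below the dotted line and with filled points for probes called changed. A number in brackets gives the last digits of the probe where a gene has more than 1; 3 points are called on the positive side in males and 6 on the negative side in females.

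None of the other replacement histones was called in a diet comparison. The median ratio of the replacement class in males was lower under median centring, as given in the last section. H3f3a, the second gene that encodes H3.3, was at 10.93, 11.01 and 11.46 in Rapa males, 10.96, 11.08 and 11.36 in control males, 10.8, 11.36 and 11.76 in Rapa females and 11.07, 11.28 and 11.45 in control females. The ranges lay within each other in both sexes, and the ratios were −0.05 ± 0.08 in males and 0.07 ± 0.08 in females (adjusted p = 0.865 and 0.56, limma). H2az1, which encodes H2A.Z, was at 10.24, 10.55 and 11.28 in Rapa males, 10.36, 10.53 and 10.81 in control males, 10.25, 10.51 and 10.84 in Rapa females and 10.27, 10.53 and 11.68 in control females. The highest level was that of control female 9. The ratios were 0.04 ± 0.12 in males and −0.19 ± 0.13 in females (adjusted p = 0.945 and 0.302, limma).

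H2ax, the H2A variant that is phosphorylated beside DNA breaks, was at 7.82, 8.14 and 8.79 in Rapa males, 8.18, 8.36 and 8.64 in control males, 7.84, 8.41 and 8.79 in Rapa females and 7.8, 8.02 and 9.23 in control females. Rapa males reached both above and below the control males, and the ratios of −0.20 ± 0.13 in males and 0.15 ± 0.14 in females did not pass the test (adjusted p = 0.554 and 0.47, limma). Macroh2a1, an H2A variant with a large additional domain, was at 9.93, 10.15 and 10.57 in Rapa males, 10.1, 10.28 and 10.83 in control males, 9.68, 10.09 and 10.54 in Rapa females and 9.77, 10.02 and 10.14 in control females. Its ratios were −0.18 ± 0.08 in males (adjusted p = 0.355) and 0.08 ± 0.09 in females (adjusted p = 0.555, limma). H2aj, an H2A variant made outside S phase, and H2al2a, an H2A variant known from sperm development, lay near background. H2aj was between 7.14 and 7.76 and H2al2a between 7.06 and 7.49 over all 42 mice, and neither was called in a diet comparison.

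Promoter sequences of RefSeq (build GRCm38.p6, 250 bases before to 50 after the annotated start) were found for 47 of the 51 genes, in 48 entries. The letters CCAAT, on either strand, occurred in 33 of 41 promoters of replication-dependent genes (80.5%), in 4 of 7 of replacement genes (57.1%) and in 37.4% of all 32851 promoters. The letters TATAA, on either strand, occurred in 33 of 41 (80.5%), 1 of 7 (14.3%) and 24.9%. The 1 replacement promoter with TATAA was that of H3f3b. The promoters below are those of the 3 genes called in males, of H2ac21, which had the largest called fall in females, and of 2 H2A genes described next that moved together from mouse to mouse. Capitals mark CCAAT and TATAA, or these letters read on the other strand (ATTGG and TTATA), and the 2 forms of TATAA can overlap. A match is a description of the letters and not a site of binding.
H3c13, chr3:96268404-96268703, + strand: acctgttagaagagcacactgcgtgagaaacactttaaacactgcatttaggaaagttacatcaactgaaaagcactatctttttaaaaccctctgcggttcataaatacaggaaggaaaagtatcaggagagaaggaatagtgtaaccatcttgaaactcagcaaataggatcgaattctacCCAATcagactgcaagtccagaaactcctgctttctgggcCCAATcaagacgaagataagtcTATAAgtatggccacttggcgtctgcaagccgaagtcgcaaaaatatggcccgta
H3c14, chr3:96246435-96246734, + strand: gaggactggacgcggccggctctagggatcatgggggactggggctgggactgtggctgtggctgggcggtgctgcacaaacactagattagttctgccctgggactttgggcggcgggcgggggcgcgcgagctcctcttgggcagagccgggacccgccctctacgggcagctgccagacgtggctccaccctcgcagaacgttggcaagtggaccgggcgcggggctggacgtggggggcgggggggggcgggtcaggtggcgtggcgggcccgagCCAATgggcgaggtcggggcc
H3f3b, chr11:116024455-116024754, − strand: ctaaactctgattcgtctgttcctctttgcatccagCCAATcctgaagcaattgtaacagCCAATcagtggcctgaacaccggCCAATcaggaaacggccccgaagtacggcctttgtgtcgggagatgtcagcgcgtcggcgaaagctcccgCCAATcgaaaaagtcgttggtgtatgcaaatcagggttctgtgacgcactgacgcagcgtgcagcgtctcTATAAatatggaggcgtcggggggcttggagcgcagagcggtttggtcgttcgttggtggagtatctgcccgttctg
H2ac21, chr3:96219635-96219934, + strand: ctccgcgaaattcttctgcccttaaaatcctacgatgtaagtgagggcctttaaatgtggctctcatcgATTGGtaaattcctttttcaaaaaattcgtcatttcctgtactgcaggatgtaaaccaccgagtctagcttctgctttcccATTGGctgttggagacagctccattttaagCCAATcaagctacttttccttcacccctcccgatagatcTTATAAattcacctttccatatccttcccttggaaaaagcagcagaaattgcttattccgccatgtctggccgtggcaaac
H2ac22, chr13:21787199-21787498, − strand: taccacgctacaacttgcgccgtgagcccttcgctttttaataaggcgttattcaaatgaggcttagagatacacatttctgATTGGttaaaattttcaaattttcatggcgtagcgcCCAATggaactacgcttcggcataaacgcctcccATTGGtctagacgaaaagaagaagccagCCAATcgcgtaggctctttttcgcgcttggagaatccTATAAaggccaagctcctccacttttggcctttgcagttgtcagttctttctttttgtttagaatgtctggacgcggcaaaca
H2ac24, chr13:21833426-21833725, − strand: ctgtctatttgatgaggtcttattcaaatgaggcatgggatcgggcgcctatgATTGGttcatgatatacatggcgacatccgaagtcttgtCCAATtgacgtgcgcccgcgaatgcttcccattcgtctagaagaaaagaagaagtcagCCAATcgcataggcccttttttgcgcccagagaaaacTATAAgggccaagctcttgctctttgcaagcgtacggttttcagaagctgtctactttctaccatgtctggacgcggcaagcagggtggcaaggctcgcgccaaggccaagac
The window of H3c13 held 2 CCAAT and 1 TATAA, that of H2ac21 held 3 and 2, and that of H2ac22 held 4 and 1. H2ac24 had 3 and 1, and H3f3b 4 and 1. In the window of H3c14 there was 1 CCAAT and no TATAA.

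The chromosome 13 H2A genes varied more between mice of 1 group than with diet. The spread within groups was large for 7 of the 8 tested H2A probes of that cluster, all but H2ac8, a choice made after their values were seen. Of these 7, H2ac11 was near background in most mice and detected on 11 arrays. H2ac24 (formerly Hist1h2ap) had a within-group SD of 1.12, which ranked 51 among 12719 probes, H2ac7 one of 1.05, H2ac10 one of 1.03, H2ac12 one of 0.995 and H2ac22 one of 0.991, against a median of 0.176 over all tested probes. The level of H2ac24 ran from 8.77 to 12.12 in Rapa males (median 9.56), from 8.91 to 11.93 in control males (9.43), from 9 to 12.05 in Rapa females (10.37) and from 9.2 to 13.66 in control females (10.72). The highest and the lowest of the 42 mice differed by 4.89 on the log2 scale, or 29.7-fold. For H2ac22 they differed 31.8-fold and for H2ac10 27.3-fold.

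The same mice were high on these probes. Control male 3 was the highest control male, and control female 9 the highest control female, on 7 of 7 probes. Rapa males 6 and 7 were the highest and second highest Rapa males on all 7, in either order, and Rapa females 9 and 11 were likewise the highest pair of Rapa females on all 7. In control females, number 5 came second on every 1 of these probes, with H2ac24 at 12.38. No probe of the 7 was called in either diet comparison. For H2ac22, the largest of their diet ratios, the values were 0.24 ± 0.40 in males (adjusted p = 0.865) and −0.83 ± 0.42 in females (adjusted p = 0.151, limma). H2ac8 stayed between 6.87 and 7.62 in all 42 mice and was detected on 5 arrays of Rapa males, 4 of control males and none of females.

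**Figure D3:**
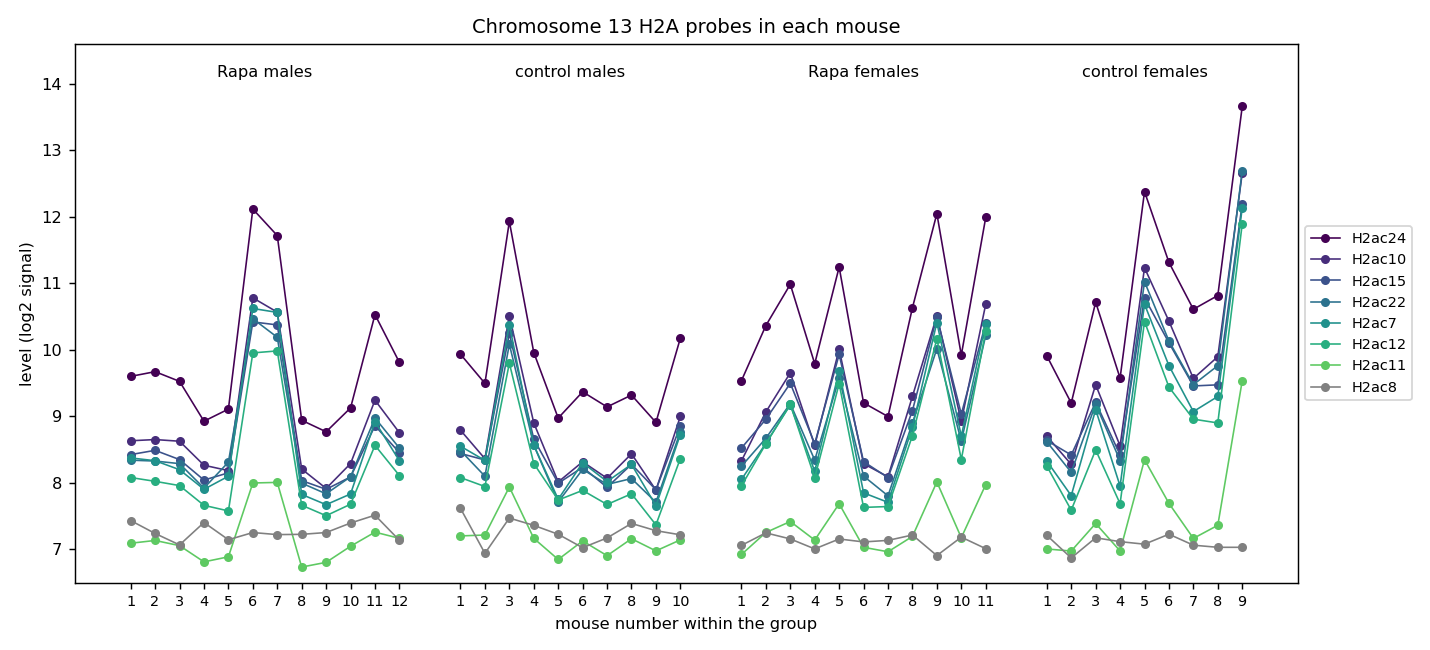
Level (log2 signal, y axis) of the 8 tested H2A probes of chromosome 13 in each mouse (x axis, numbered within Rapa males, control males, Rapa females and control females), with a line for each gene that joins mice for reading only. H2ac24 reached 13.66 in control female 9 and 12.12 in Rapa male 6, the other genes followed it, and H2ac8 (grey) did not.

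The levels of H2ac24 were set against 2 other measures of the same mice within each group, 8 relations in all, with p-values adjusted over them. The first was the mean level of 27 genes of S phase and mitosis, none of them a member but with Cenpa, which encodes the centromeric H3 variant, and the second the mean level of 13 neutrophil markers. The S phase mean was 7.78 to 8.98 in Rapa males, 7.77 to 8.26 in control males, 7.63 to 8.16 in Rapa females and 7.68 to 9.09 in control females. With it, H2ac24 correlated at a Pearson r of 0.93 in Rapa males (adjusted permutation p = 5.78e-04), with a Spearman rho of 0.87 (adjusted permutation p = 0.00133). The same relation had an r of 0.97 in control males (adjusted permutation p = 3.2e-04) and a rho of 0.92 (adjusted permutation p = 0.00133). In Rapa females r and rho were both 0.73 (adjusted permutation p = 0.014 and 0.0192). In control females r and rho were both 0.9 (adjusted exact permutation p = 5.78e-04 and 0.00325). Without the 2 mice farthest from the median S phase level, r was 0.92 in Rapa males, 0.87 in control males, 0.65 in Rapa females and 0.76 in control females.

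The neutrophil markers spread most in females. Their mean level was 7.64 to 9.25 in Rapa males (median 8.01), 7.42 to 8.9 in control males (7.64), 7.54 to 11.61 in Rapa females (8.87) and 7.61 to 11.94 in control females (8.46). H2ac24 correlated with it at an r of 0.94 in Rapa females (adjusted permutation p = 2.4e-04) and a rho of 0.96 (adjusted permutation p = 8e-05), and at an r of 0.91 in control females (adjusted exact permutation p = 5.78e-04) with a rho of 0.9 (adjusted exact permutation p = 0.00325). Without the 2 farthest mice, r was 0.89 in Rapa females and 0.7 in control females. In control males r was 0.92 (adjusted permutation p = 0.00612) and rho 0.75 (adjusted permutation p = 0.0195), but r was 0.42 without control males 3 and 9, so it rested on those mice. In Rapa males r was 0.34 (adjusted permutation p = 0.267) and rho 0.64 (adjusted permutation p = 0.0301), with an r of 0.59 without Rapa males 4 and 12. Rapa males 6 and 7, with the highest H2ac24 of their group, had neutrophil means of 8.3 and 8.28 and S phase means of 8.58 and 8.98. Control females 1 to 5 and 6 to 9 are too few for values of their own. The part that dividing cells or neutrophils played in these levels was not tested.

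**Figure D4:**
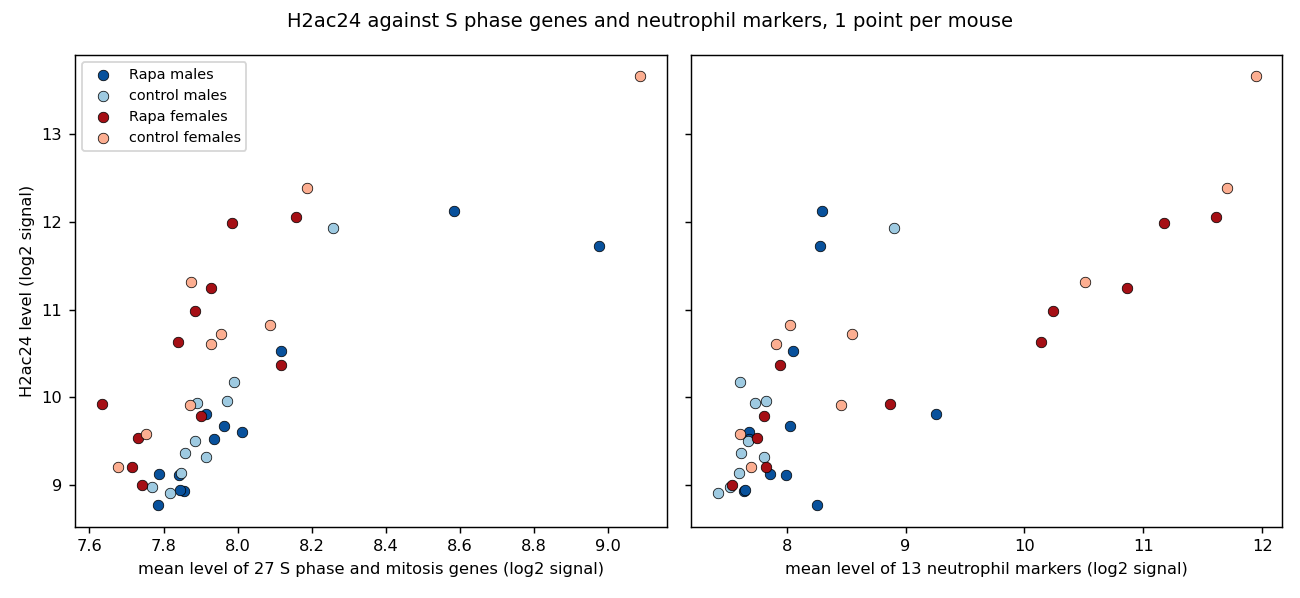
Level of H2ac24 (y axis) against the mean level of 27 S phase and mitosis genes (left) and of 13 neutrophil markers (right), in log2 signal, with 1 point per mouse coloured by group. Points rise to the right in both plots, and Rapa males 6 and 7 (H2ac24 at 12.12 and 11.72) lie high on S phase genes but at 8.3 and 8.28 on neutrophil markers.

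Between the sexes, most called histone probes were lower in males on both diets. With all mice, the share called was near that of all tested probes on the Rapa diet and above it on the control diet. In the comparison of Rapa males with Rapa females, 12 of 42 histone probes were called (28.6%), 3 higher and 9 lower in males, beside 15.8% higher, 16.3% lower and 32.2% in either direction among all tested probes. Of control males against control females, 25 of 42 were called (59.5%), 3 higher and 22 lower in males, beside 22.5% higher, 17.7% lower and 40.2% in either direction. Among the 3 higher were H2ac8 and H4c3, which no female array detected and which passed the detection filter through males alone. H2ac8 was also among the 3 higher on the Rapa diet. These calls are counted but not read as a higher level in males. The array background differed between the sexes as given above, and its part in these differences was not tested. On the control diet 9 of 42 histone probes were called without control females 6 to 9, 1 higher and 8 lower in males. The share of all tested probes called without these mice is not set beside it. The fall in the count is therefore not read as a result about histones, and the share above that of all tested probes is given for all mice only.

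On the Rapa diet, males were lower in 4 H2B genes, 3 H3 probes, H2ac18 and H3f3a. H3c4 (formerly Hist1h3d) was at 7.65, 7.78 and 8.22 in Rapa males and 7.93, 8.2 and 8.68 in Rapa females. The groups overlapped only in part (no histone probe separated them, against 2.69% of all tested probes), and the ratio was −0.44 ± 0.08 (adjusted p = 8.23e-05, limma). H3c6 had −0.47 ± 0.10 (adjusted p = 5.14e-04), the dim H3c14 probe −0.43 ± 0.08 (adjusted p = 9.21e-05), H2bc9 −0.39 ± 0.11 (adjusted p = 0.00522) and H2ac18 −0.39 ± 0.12 (adjusted p = 0.00886, all limma). H2bc14, H2bc7 and H2bc11 had ratios of −0.37, −0.32 and −0.29, and H3f3a had −0.26 ± 0.08 (adjusted p = 0.00904, limma). The bright H3c14 probe was higher in Rapa males, by 0.45 ± 0.10 (adjusted p = 5.29e-04, limma), and the dim H2bc4 probe by 0.34 ± 0.11 (adjusted p = 0.0105, limma). The third was H2ac8, which no female array detected, so that no fold is given. The 2 probes of H3c14 thus had ratios of opposite sign between the sexes, and the dim one was near background, detected in 4 of 12 Rapa males and 9 of 11 Rapa females.

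On the control diet H3c13 and H2ac21 separated the sexes without overlap, as did 6.48% of all tested probes. H3c13 was at 10.53, 10.77 and 11.07 in control males, all below the 11.18 of the lowest control female, and the ratio was −0.70 ± 0.09 (adjusted p = 4.83e-08, limma). H2ac21 was at 7.28, 7.68 and 8.01 in control males, against 8.02, 8.26 and 9.54 in control females, with a ratio of −0.88 ± 0.13 (adjusted p = 1.36e-06, limma). On the Rapa diet neither differed past the threshold, with ratios of 0.15 ± 0.08 for H3c13 (adjusted p = 0.144) and −0.08 for H2ac21 (adjusted p = 0.647, limma). The bright H3c14 probe had −0.62 ± 0.11 (adjusted p = 2.13e-05), H3c4 −0.53 ± 0.09 (adjusted p = 1.52e-05), H4c18 −0.56 ± 0.12 (adjusted p = 2.42e-04) and H4c12 −0.50 ± 0.12 (adjusted p = 9.71e-04, all limma). Without control females 6 to 9, H3c13 was at −0.56 (adjusted p = 3.55e-05), H2ac21 at −0.62 (adjusted p = 6.63e-05), the bright H3c14 probe at −0.45 (adjusted p = 0.00397), H3c4 at −0.39 (adjusted p = 0.00495) and H4c18 at −0.29 (adjusted p = 0.0399), while H4c12 was at −0.28 and no longer called (adjusted p = 0.0687, all limma). The H2A genes with wide spread had the largest ratios, −1.34 ± 0.43 for H2ac22, −1.24 ± 0.45 for H2ac10, −1.19 ± 0.49 for H2ac24 and −1.15 ± 0.40 for H2ac15, with adjusted p-values of 0.0103 to 0.0483 in limma. None of these 4 was called without control females 6 to 9 (ratios of −0.70, −0.62, −0.64 and −0.61). The H2ac24 call was also lost without any 1 of 14 single mice (adjusted p up to 0.147), that of H2ac10 without control female 5 or 9 (up to 0.0805) and that of H2ac15 without control female 9 (0.0707, limma).

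Of the replacement histones, Macroh2a1 was higher in control males by 0.36 ± 0.09 (adjusted p = 0.00127) and H3f3b lower by 0.30 on the log2 scale, at a ratio of −0.30 ± 0.10 (adjusted p = 0.00953, limma). Without control females 6 to 9 the Macroh2a1 ratio was 0.32 (adjusted p = 0.0255), and that of H3f3b was −0.21 (adjusted p = 0.16, limma). H2ac8 and H4c3, called higher in control males at levels of 7.27 and 7.36, were detected on no array of control females. The remaining calls, all lower in control males, were H2ac18, H2ac20, H2bc4 (2 probes), H2bc11, H2bc15, H2bc18, the dim H3c14 probe, H4c4, H4c8 and H4c9, with ratios of −0.26 to −0.72. Of these, H2ac18 (−0.42), H2bc18 (−0.31) and the dim H3c14 probe (−0.40) were still called without control females 6 to 9, while the other ones, H2ac8 and H4c3 were not.

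**Figure D5:**
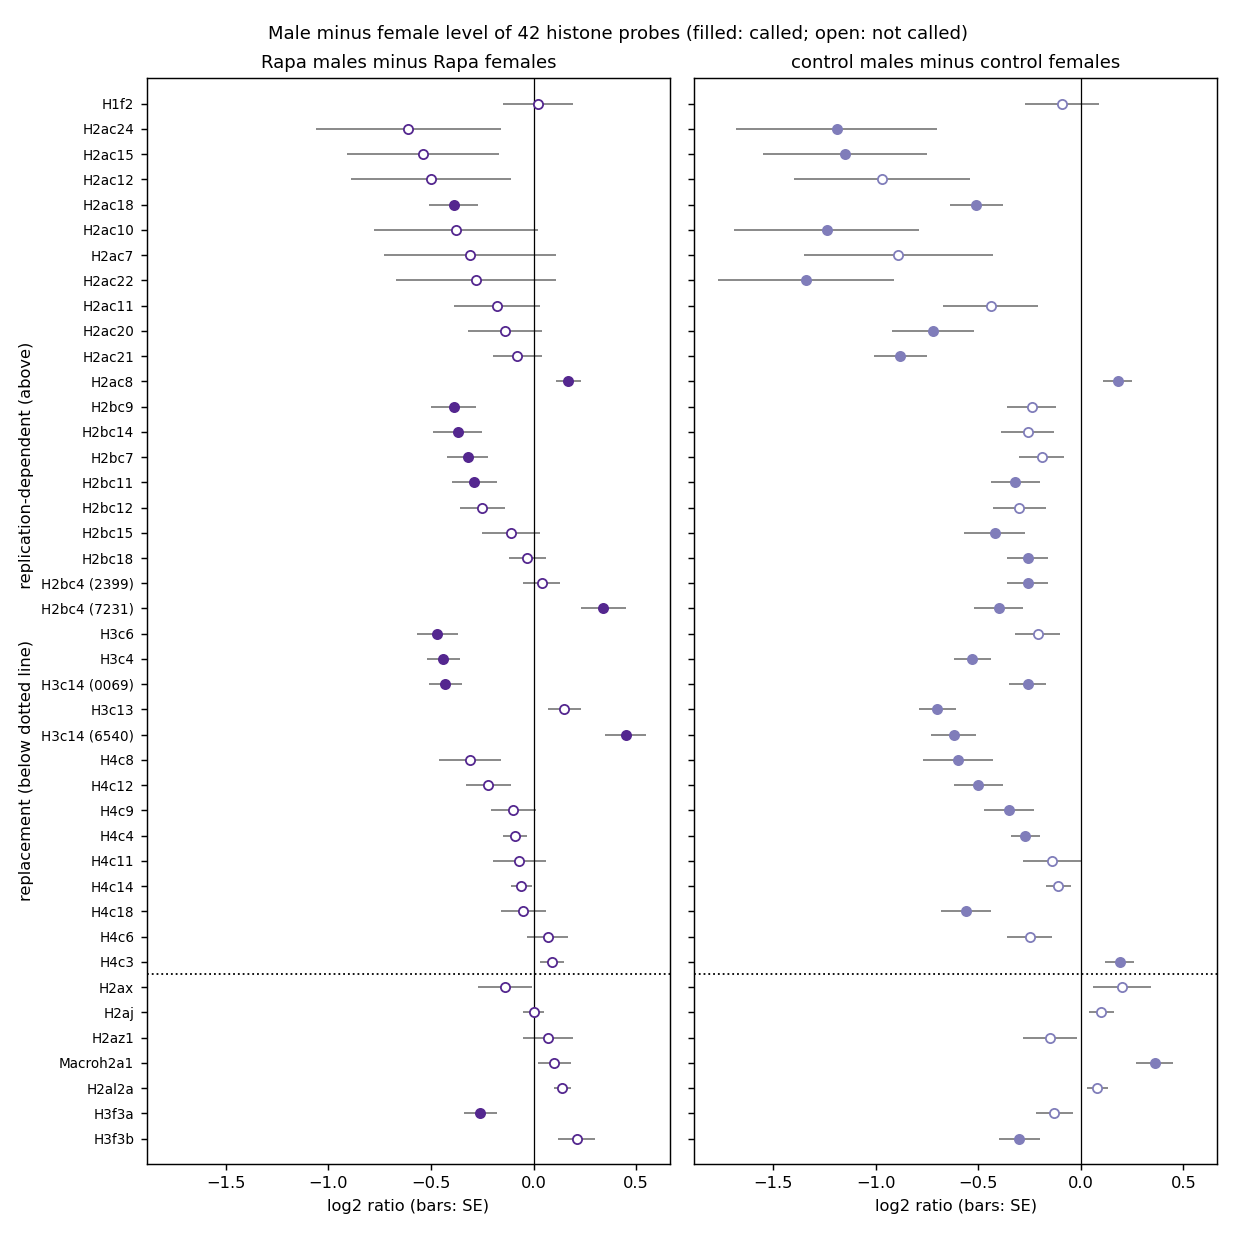
Log2 ratio of males to females (x axis, bars for the SE) of the 42 tested histone probes on the Rapa diet (left) and the control diet (right), with replication-dependent genes above and replacement genes below the dotted line and filled points for probes called. Most points lie left of 0, and 25 probes are called on the control diet against 12 on the Rapa diet.

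Genes that act on histones were taken from 5 lists, with the brightest tested probe of each gene. The shares over all tested probes count every probe, bright or dim, so they are not a like-for-like measure for the lists. In males none was called on any list, where 0.653% of all tested probes were called. In Rapa females 9.37% of all tested probes were lower and 21.6% called in either direction. Of 27 measured genes of S phase and mitosis, 3 were lower (11.1%): Pcna, the sliding clamp of DNA polymerase, by a ratio of −0.81 ± 0.11 (adjusted p = 7.35e-07), Stmn1 by −0.41 ± 0.13 (adjusted p = 0.019) and Rfc4, a subunit of the clamp loader, by −0.36 ± 0.11 (adjusted p = 0.0103, all limma). The median ratio of this list was −0.133 in females, with 4 of 27 above 0, and 0.127 in males, with 23 of 27 above 0. The female median was 0.009 without control females 6 to 9, Pcna was at −0.46 (adjusted p = 1.79e-04), and Stmn1 (−0.19) and Rfc4 (−0.17) were not called by limma. Among 18 genes of histone mRNA expression and 3′ end processing, Cpsf1 (0.25) and Srrt (0.26) rose and Ncbp2 (−0.47), Cpsf3 (−0.34) and Fip1l1 (−0.26) fell in Rapa females, 5 of 18 or 27.8%. Of these, Ncbp2 alone was called without control females 6 to 9 (−0.34, adjusted p = 0.0208, limma).

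Of 19 chaperones and deposition factors, 4 rose and 1 fell in Rapa females. The H3.3 chaperone Daxx had a ratio of 0.28 and the importin Ipo4 one of 0.25, while Dek had −0.62. Of 21 genes of the complexes that exchange H2A.Z, 4 rose and 3 fell, among them Actl6a (−0.38). The enzymes of H3 and H4 methyl marks had 8 genes up and 3 down of 26, or 42.3%, beside 21.6% of all tested probes. Eed, a subunit of the complex that methylates H3K27, fell most, with a ratio of −0.59 ± 0.09 (adjusted p = 2.12e-06, limma), and Ash2l (0.20), Kdm4b (0.30) and Ehmt2 (0.30), an H3K9 methyltransferase, rose. Without control females 6 to 9, 7.01% of all tested probes were called. The methyl mark list then had 2 genes up and 2 down of 26 (15.4%). The chaperones had 0 up and 2 down of 19 (10.5%), and the H2A.Z exchange list 1 up and 0 down of 21 (4.76%). Eed was at −0.35 (adjusted p = 7.3e-04), Dek at −0.45 (adjusted p = 4.99e-04) and Kdm4b at 0.30 (adjusted p = 0.0121, all limma). Daxx (0.09), Ipo4 (0.07), Actl6a (−0.19), Ash2l (0.15) and Ehmt2 (0.23) were not called.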

How the data were processed

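Liver RNA of 42 mice was labeled with the Illumina TotalPrep kit and hybridized to 1 Mouse Ref8 array each. Bead intensity of 25697 probes was read out in Genome Studios and deposited raw by the authors. Beside it the authors gave a detection score as a fraction, close to 1 where a probe was detected. A second deposited table held log2 values of 17082 probes after quantile normalization in Matlab. Here log2 of the raw intensity was quantile-normalized over all arrays, and 12719 probes with a detection p (1 minus the score) under 0.05 on at least 9 arrays were tested with limma 3.58.1 in R 4.3.3 (statmod 1.5.0). One fit of 4 group means served 5 comparisons, with Benjamini-Hochberg adjustment over all tested probes. The fit was run on simulated data with independent noise for each probe. Those data lack the shared differences between arrays seen here, so the run cannot show how the fit handles them. Named are members called in at least 1 comparison (up to 12 each), replacement histones by role, and up to 4 called genes of each list. Members, lists, tests and thresholds were chosen with earlier results of these data known. Alternatives covered normalization, background, filters, tests, weights, blocks and left-out mice. Each mouse is a separate animal, and the number of arrays limits the precision.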

Additional observations from a re-analysis of the deposited data

Results flagged for a closer look

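Levels of single mice far from the rest of their control group were looked for in 84 sets (42 histone probes in control males and in control females). The gap of the highest or lowest mouse to its neighbour, as a share of the range of the group, passed Dixon's limit in 17 sets. For single sets chance gives 5%, or about 4.2. The sets share mice and several probes moved together, so 17 is not a count of separate events and cannot be tested against 4.2. Control male 3 was the highest on 8 of them: H2ac7 (0.606), H2ac10 (0.577), H2ac11 (0.662), H2ac12 (0.59), H2ac15 (0.592), H2ac22 (0.554), H2ac24 (0.581) and H4c12 (0.724). Control female 9 was the highest on H3c13 (0.531), H3c14 (0.559), H2ax (0.544) and H2az1 (0.538). Control female 6 was the highest on H2bc12 (0.543) and H4c11 (0.637), and control female 4 the lowest on H1f2 (0.522). Near background, control male 8 was the highest on H4c3 (0.479) and control male 7 the lowest on H4c14 (0.481). H2ac11 was near background too, detected on 1 of 10 arrays of control males.

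The diet effect in females minus that in males passed the interaction test of limma for 6 probes: H3c14 (−1.07), H3c13 (−0.86), H2ac21 (−0.80), H2bc4 (−0.74), H4c18 (−0.51) and H3f3b (−0.51).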

How the results depend on the processing

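The shares of all tested probes called under the settings below are not set beside the histone counts. A change in these counts is therefore not read as a result about histones. Background correction with an offset of 16 left the number of histone probes called at 3, 6, 6 and 25 and gave 13 for the sexes on the Rapa diet, against 12. For Rapa males against control males, 3 calls became 0 with 3 principal components of never-detected probes as covariates and 0 with a random block for neighbouring animal numbers, 1 with the replicate number as a block, and 2 under median centring, where 0 were higher and 2 lower; leaving out 1 mouse gave 2 to 3. Under median centring the median ratio of all tested probes was −0.128 in males, against −0.005, 0.057 in females, against 0.023, and 0.186 for the interaction, against 0.031. For Rapa females against control females, 6 became 1 with control females 1 to 5 and Rapa females 1 to 4 alone, and 4 to 6 without 1 mouse. The interaction had 2 calls with the components, 3 with those females alone, 10 (5 higher, 5 lower) under median centring, and 6 to 7 without 1 mouse. Control males against control females went to 0 with the components, 9 without control females 6 to 9, and 20 to 30 without 1 mouse. Rapa males against Rapa females had 3 calls with the components and 11 to 14 without 1 mouse. Leaving out 1 mouse, the replication-dependent median ran from −0.005 to 0.109 in males, from −0.246 to −0.109 in females and from −0.331 to −0.175 for the interaction, and the replacement median from −0.025 to 0.023, from 0.033 to 0.081 and from 0.066 to 0.126. The replication-dependent median of the interaction, −0.261, was −0.022 without control females 6 to 9, −0.021 with the components and −0.052 under median centring, and that of females, −0.202, was 0.004 without those 4 mice and −0.042 with array weights. In males it was −0.243 with the components and −0.043 under median centring, against 0.067. The replacement median in males was −0.205 under median centring, against 0.003. With the components as covariates, which differ between the sexes, 24 ratios of males to females changed sign, none of them called (adjusted p of 0.121 to 0.969, limma). On the control diet these were H2ac10 1.22, H2ac15 1.05, H2ac18 1.23, H2ac20 1.19, H2ac21 0.76, H2ac22 1.33, H2ac24 0.50, H2bc11 1.70, H2bc15 2.48, H2bc4 1.62 and 1.55, H3c4 1.06, H4c4 0.29, H4c8 0.98, H4c9 1.46, H4c12 1.16 and H4c18 1.61, and on the Rapa diet H2ac18 1.05, H2bc7 0.87, H2bc9 0.94, H2bc11 1.52, H2bc14 1.62, H3c4 0.88 and H3c6 0.11. The cause was not tested. Animals of equal number are different mice. Their deviations from the group means correlated at −0.496 to 0.318 in males (10 pairs) and −0.372 to 0.49 in females (9 pairs). In each sex, 6 pairs were above 0.1, and 1 Rapa mouse correlated best with the control mouse of its own number. Whether equal numbers share a factor was not tested. With the replicate number as a block, H3c13 (0.34, adjusted p = 0.0705) and H3c14 (0.47, adjusted p = 0.0628, both limma) missed the threshold in males. The counts with this block were 5 in females, 6 for the interaction, 24 and 12 for the sexes. Leaving out control females 5 and 9, chosen after seeing the data, gave 6 female calls, 1 higher and 5 lower.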
